A study of Nicotiana tabacum with 54 samples.

Results

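NtGSTU11 (Nitab4.5_0000008g0170) and NtGSTU15 (Nitab4.5_0000356g0010) are 2 of the 59 glutathione S-transferase genes (NtGSTs) listed by the study for tobacco, Nicotiana tabacum, and 2 of the 40 that belong to the Tau class. They were selected on measured values of these same tables, namely a high mean level and a wide spread between replicate libraries. The height of their levels, the width of their spreads and their ranks by these are therefore given as a description without a test. Differences between tissues, materials and column numbers were tested, with results of these data known. Each was found by its identifier among the 69500 genes of the leaf, stalk and root tables. The annotation places both on chromosome 2, NtGSTU11 at 19355605-19356587 and NtGSTU15 at 14883001-14886225, each with 2 exons, in a genome build that no source names. The label of an abundant and variable gene held for NtGSTU15 in leaf and root, whereas NtGSTU11 in root was abundant but among the steadiest members of the family, and NtGSTU15 in stalk was variable but low in most libraries.

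RNA from 3 tissues of 6 tobacco materials was sequenced after topping, the removal of the flowering shoot, in 54 libraries, 3 to a group. According to the labels the materials were Basma, GDH88, Hongda, HxB, VxG88 and Va116. The names HxB and VxG88 read as crosses, though no source states their parents, and the text of the study lists HG, GDH11 and VG in place of Basma, HxB and VxG88. No source says which of these names belong together, and those of the labels are kept here. No transgene or further treatment is named, and no untreated or untopped plants were among the samples, so all groups share the topping. The tables number the libraries of a group from 1 to 3, and libraries are written with material and column number (Va116_2). The methods of the study describe biological replicates of 3 plants, which were sampled for all 3 tissues. They also state that the transcriptome data came from earlier work of the group, sampled 1 week after topping. Whether the sampling of 3 plants applies to these libraries is not stated, so libraries of different tissues may share plants. No source ties the column numbers to these replicates, and the tissue tests below therefore treat the libraries as independent.

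Glutathione S-transferases join the tripeptide glutathione to electrophilic compounds, which makes these compounds more soluble and allows their transport into the vacuole. The Tau class occurs in plants, is often encoded in tandem arrays, and is known for the detoxification of herbicides and for induction by auxin, wounding, pathogens and oxidative stress. In tobacco, promoters of this kind of gene are known for the as-1 element, which carries TGACG and is bound by the TGA group of bZIP transcription factors.

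The upstream elements that the study's prediction lists for the 2 genes were largely different. The following sequences are shown because each is listed, in these letters, for one of the genes and not for the other. The TC-rich repeat as an element was listed for both genes, with different letters. Capitals mark a shorter listed element inside the longer one, or the core of the motif, and all are written 5′ to 3′.
NtGSTU11, GATA-motif, GATA in capitals: aaGATAagatt
NtGSTU11, TC-rich repeat, the TCT-motif in capitals: gtttTCTTAC
NtGSTU15, O2-site, the TGACG-motif in capitals: gtTGACGtga
NtGSTU15, TC-rich repeat: attctctaac
The same letters were listed for 18.6% of the 59 NtGST genes in the case of the first sequence, 13.6% for the second, 13.6% for the third and 15.3% for the last. TGACG was listed for NtGSTU15 and for 38 of the 59 genes (64.4%), each of which was also listed with its reverse complement CGTCA, so these 2 entries cannot be counted as separate sites. NtGSTU11 was listed with neither. A listed element is a match of letters in an upstream window and says nothing about binding.

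In expression, the libraries grouped by tissue. The correlation of log2 values between 2 libraries had a median of 0.922 within a tissue and 0.665 between tissues, with a highest value of 0.811 between tissues. No 2 of the 54 libraries were identical. The values are FPKM (fragments per kilobase of gene, scaled to the fragments of the library), and their sum per library was between 768375 and 832327. The depth of the libraries is unknown because the tables hold no counts. Between 30198 and 37004 genes reached 1 FPKM in a library. On genes that differed among materials in the other tissues, 47 of the 54 libraries lay closest to their own material and 7 lay closer to another (leaf VxG88_2, stalk Basma_1, GDH88_1, VxG88_1 and VxG88_2, root Basma_1 and GDH88_2), and results are also given without these 7. Stalk Va116_2 stood apart as well: it had the fewest genes at 1 FPKM of the 18 stalk libraries, 30999, and 991 of its 35994 tested genes (2.75%) were at 4 times the median of the other stalk libraries or more, against a median of 316.5 such genes per stalk library. The tissue of origin could not be checked against named marker genes, since the files pair none of the other identifiers with gene names. In whole tissue, fewer cells that express a gene and less RNA per cell cannot be told apart.

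NtGSTU11 was expressed in all 54 libraries and was highest in root, intermediate in leaf and lowest in stalk. In leaf, Hongda had 96.39, 126.61 and 209.34 FPKM, HxB had 88.27, 224.39 and 152.63 FPKM, and Basma had 107.19, 209.61 and 159.75 FPKM in columns 1, 2 and 3. Va116 leaf had 107.23, 193.24 and 91.53 FPKM, VxG88 leaf had 112.26, 153.45 and 155.13 FPKM, and GDH88 leaf had 85.80, 192.09 and 94.09 FPKM. The 6 materials overlapped throughout, with leaf means between 124 ± 59.1 FPKM in GDH88 and 159 ± 51.2 FPKM in Basma (SD, n = 3).

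In stalk, NtGSTU11 was at 53.62, 42.31 and 41.49 FPKM in Hongda, at 65.77, 103.63 and 85.47 FPKM in HxB and at 15.81, 23.81 and 19.01 FPKM in Basma. The stalks of Va116 had 31.66, 143.23 and 224.32 FPKM, those of VxG88 had 20.83, 82.00 and 66.82 FPKM, and those of GDH88 had 62.50, 23.94 and 20.21 FPKM. Stalk was thus the tissue in which the means of the materials lay farthest apart, from 19.5 ± 4.03 FPKM in Basma to 133 ± 96.7 FPKM in Va116 (SD, n = 3), a ratio of 6.81. The libraries of Basma, Hongda and HxB did not overlap each other, while those of Va116 and VxG88 each spanned the levels of most other materials.

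In root, NtGSTU11 had 271.13, 220.91 and 305.27 FPKM in Hongda, 363.00, 229.49 and 346.84 FPKM in HxB, and 332.39, 234.81 and 359.13 FPKM in Basma. Va116 root had 459.76, 241.48 and 375.69 FPKM, VxG88 root had 244.17, 363.06 and 358.45 FPKM, and GDH88 root had 232.92, 255.64 and 205.15 FPKM. All 18 root libraries were within a ratio of 2.24 of each other. In each of the 6 materials every root library lay above every leaf and every stalk library of that material. The share of all genes separated in this way was not counted.

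NtGSTU15 was expressed at high levels in leaf and root and at low levels in most stalks. In leaf it had 34.09, 95.84 and 93.59 FPKM in Hongda, 26.24, 149.29 and 91.92 FPKM in HxB, and 30.22, 98.10 and 128.86 FPKM in Basma. Va116 leaf had 92.60, 118.77 and 37.82 FPKM, VxG88 leaf had 207.64, 75.55 and 45.29 FPKM, and GDH88 leaf had 130.93, 106.85 and 72.35 FPKM. Column 1 was the lowest library in Hongda, HxB and Basma and the highest in VxG88 and GDH88, so the 3 libraries of a material differed more than the means of the materials, which lay between 74.5 ± 35.0 FPKM in Hongda and 109 ± 86.3 FPKM in VxG88.

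In stalk, NtGSTU15 had 12.24, 1.33 and 1.75 FPKM in Hongda, 1.67, 3.56 and 5.45 FPKM in HxB, and 3.33, 0.12 and 6.60 FPKM in Basma. Va116 stalk had 2.21, 280.37 and 33.98 FPKM, VxG88 stalk had 1.98, 18.41 and 2.44 FPKM, and GDH88 stalk had 20.85, 1.29 and 0.66 FPKM. Va116_2 was 8.25 times the next library and 280.37 FPKM against a median of 2.44 FPKM in the other 17. The mean of the 18 stalk libraries was 22.1 ± 65.1 FPKM (SD), and that of the 17 without Va116_2 was 6.93 ± 9.30 FPKM.

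In root, NtGSTU15 had 97.58, 344.24 and 270.93 FPKM in Hongda, 31.84, 86.31 and 242.57 FPKM in HxB, and 29.01, 395.95 and 170.92 FPKM in Basma. Va116 root had 176.72, 310.68 and 72.16 FPKM, VxG88 root had 365.07, 182.15 and 119.39 FPKM, and GDH88 root had 49.63, 50.33 and 64.01 FPKM. GDH88 was the one material whose 3 root libraries lay close together, and its mean of 54.7 ± 8.11 FPKM was the lowest of the 6, while the widest span was 13.6 times, in Basma.

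**Figure D1:**
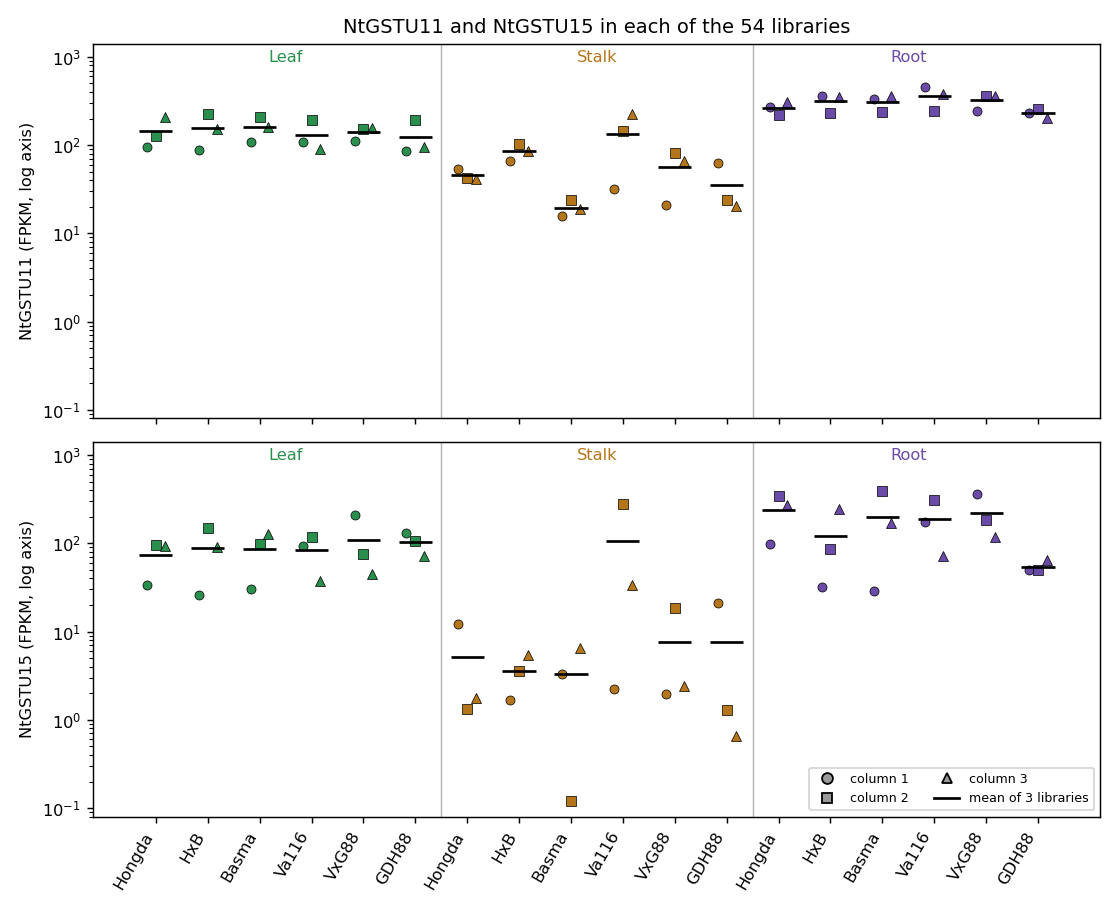
FPKM of NtGSTU11 (upper panel) and NtGSTU15 (lower panel) in each of the 54 libraries, on log axes. Points are libraries, with the shape giving the column number, and bars are means of 3 libraries. NtGSTU11 root libraries sit between 205.15 and 459.76 FPKM, and NtGSTU15 in stalk ranges from 0.12 to 280.37 FPKM.

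Tissues were contrasted in a limma fit of log2(FPKM + 1) that held terms for tissue and for material, over 42820 genes and with Benjamini-Hochberg adjustment. NtGSTU11 was higher in root than in leaf by 1.11 on the log2 scale (SE 0.218, adjusted p = 1.28e-05) and higher in root than in stalk by 2.59 (SE 0.218, adjusted p = 6.07e-15). It was lower in stalk than in leaf, with a log2 difference of -1.49 (SE 0.218, adjusted p = 4.11e-08). NtGSTU15 was higher in root than in stalk by 4.38 on the log2 scale (SE 0.449, adjusted p = 3.83e-12) and lower in stalk than in leaf, with a log2 difference of -3.71 (SE 0.449, adjusted p = 3.12e-10). Its difference of 0.67 between root and leaf did not pass the threshold (SE 0.449, adjusted p = 0.174). Of all genes tested, 36.4% were called higher in root than in leaf, 26.5% higher in root than in stalk and 31.3% lower in stalk than in leaf, so a call of this kind was common. The 6 differences kept their direction and their side of the threshold under every alternative tried, which included leaving out each column number, each material, stalk Va116_2 and the 7 libraries named above.

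The order of root, leaf and stalk was not alike in every material. NtGSTU11 had a higher mean in leaf than in stalk in 5 of the 6 materials, the exception being Va116, whose stalk mean of 133 FPKM was close to its leaf mean of 131 FPKM. NtGSTU15 had a higher mean in root than in leaf in 5 of the 6 materials, and the exception was GDH88 with 54.7 FPKM in root and 103 FPKM in leaf. When tested as an interaction of tissue and material, neither difference passed the threshold (unadjusted p = 0.0483 for NtGSTU11 and 0.43 for NtGSTU15, limma adjusted p = 1.0 for both, with 0.458% of all genes called). The replicate spread by which the genes were selected enters the error of this test, so the miss is no finding.

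Among the family, most Tau genes tested were called higher in root than in leaf and in stalk, as NtGSTU11 was. NtGSTU15 passed against stalk only. Of the 39 Tau members that passed the filter on low values, 28 were called higher and 8 lower in root than in leaf, beside 36.4% and 37% of all genes. The filter asked for 1 FPKM in any 3 of the 54 libraries and was the same for all genes. NtGSTU2, NtGSTU3, NtGSTU6, NtGSTU9, NtGSTU18, NtGSTU23, NtGSTU28 and NtGSTU29 met it in root only. Their direction in both root contrasts was therefore favoured in advance. NtGSTU13, NtGSTU26 and NtGSTU39 met the filter in leaf only, so a lower level in stalk or root than in leaf was favoured for them. All these members stay in the counts and medians given here. No excess over the shares of all genes is therefore read from the counts. In root against stalk 32 of the 39 were called higher and 4 lower, beside 26.5% and 40.6% of all genes. The median log2 difference of the 39 was 1.28 between root and leaf and 2.21 between root and stalk. In stalk against leaf, 17 of the 39 were called lower, beside 31.3% of all genes, and 4 higher. The median log2 difference there was -0.32.

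The balance between the 2 genes differed most in the stalk. FPKM is a level per gene length, and on this scale NtGSTU15 was higher than NtGSTU11 in 2 of 18 leaf libraries, in 1 of 18 stalk libraries (Va116_2) and in 4 of 18 root libraries. The log2 ratio of NtGSTU15 to NtGSTU11, with 1 added to both FPKM values, averaged -0.77 ± 0.74 in leaf (SD, n = 18). It averaged -3.00 ± 1.45 in stalk and -1.21 ± 1.30 in root. Over the 6 materials the ratio was higher in root than in stalk by 1.79 ± 1.02 (SD, n = 6) and lower in stalk than in leaf, with a difference of -2.23 ± 0.834 (SD, n = 6). Both differences had the same sign in 6 of 6 materials and an exact two-sided sign-flip permutation p = 0.03125, the smallest p that 6 materials allow, or 0.0469 when adjusted over the 3 tissue contrasts. Without the libraries of column 1, or without those of column 2, the adjusted permutation p of both was 0.09375. The ratio differed between root and leaf by -0.436 ± 0.849 (exact permutation p = 0.281). The added 1 narrows the ratio where NtGSTU15 is low, as in stalk. With 0.1 added in its place, the difference was 2.24 between root and stalk and -2.67 between stalk and leaf.

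Differences among the 6 materials within a tissue were not detected for either gene. Both genes were selected in part for a wide spread between replicate libraries, which is the error term of this test. A missed threshold is therefore no finding. In leaf the limma F test gave an adjusted p = 1.0 for both genes, with 1.6% of all genes called. In stalk NtGSTU11 had an unadjusted p = 0.0217 and an adjusted p = 0.72, and NtGSTU15 an adjusted p = 1.0, with 0.403% of all genes called. In root both had an adjusted p = 1.0, with 0.307% of all genes called. For NtGSTU11 in stalk the call depended on which libraries were used: without the libraries of column 1 its adjusted p was 0.00918 by limma.

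The spread between the libraries of a material was much wider for NtGSTU15 than for most genes. Within a material, its log2(FPKM + 1) values had a pooled SD of 0.97 (leaf), 1.88 (stalk) and 1.19 (root). Of all tested genes, 92.4% had a smaller SD in leaf, and these shares were 99.2% for stalk and 95.1% for root. Against genes of a like mean, between 0.5 and 2 times its own, these shares were 84.1%, 98.6% and 86.0%. Within the family it ranked 1 of 41 by this SD in stalk, followed by NtGSTU8 (1.60) and NtGSTU40 (1.57), and it ranked 4 of 51 in root, after NtGSTU28 (1.40), NtGSTU35 (1.30) and NtGSTU38 (1.30). In leaf it ranked 8 of 43, where the widest were NtGSTU36 (1.24), NtGSTU14 (1.23) and NtGSTU38 (1.15). The SD, shares and rank of NtGSTU15 in stalk include Va116_2 at 280.37 FPKM and were not computed without it. The other 17 stalk libraries ranged from 0.12 to 33.98 FPKM.

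For NtGSTU11 the spread depended on the tissue. Its pooled SD was 0.83 in stalk, larger than that of 85.9% of all genes, and 0.55 in leaf, larger than that of 72.8%. Among genes of like mean these shares were 78.5% in stalk and 59.3% in leaf. By this SD it ranked 14 of 41 family members in stalk and 20 of 43 in leaf. In root it was 0.33, and 22.0% of all genes had a smaller SD, or 17.3% of the genes of like mean. In root it ranked 48 of 51 family members by this SD, and the highest of 3 root libraries exceeded the lowest by at most 1.90 times in any material. In root, therefore, NtGSTU11 was not a variable gene by this measure.

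By mean level, NtGSTU11 ranked 2 of 59 in the family in leaf, after NtGSTU24 (191 ± 66.2 FPKM, SD, n = 18), and 2 of 59 in root, after NtGSTF4 of the Phi class (337 ± 150 FPKM). It was the highest family member in 7 of 18 leaf libraries and in 7 of 18 root libraries. In stalk it ranked 5 of 59, after NtGSTT2 (196 ± 140 FPKM), NtDHAR2 (163 ± 33.4 FPKM), NtDHAR1 (126 ± 23.1 FPKM) and NtGSTF4 (124 ± 64.8 FPKM). DHAR genes encode dehydroascorbate reductases, which regenerate ascorbate with glutathione. NtGSTU15 ranked 3 in leaf, 5 in root, after NtGSTU20 (191 ± 121 FPKM) and NtGSTU40 (183 ± 112 FPKM) as well, and 14 in stalk. As a share of the summed FPKM of the 40 Tau genes, NtGSTU11 had a median of 16.4% (leaf), 14.0% (stalk) and 17.9% (root). The median share of NtGSTU15 was 10.3% for leaf, 1.10% for stalk and 6.98% for root, and in single libraries its share ranged from 0.0519% to 24.8% in stalk.

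**Figure D2:**
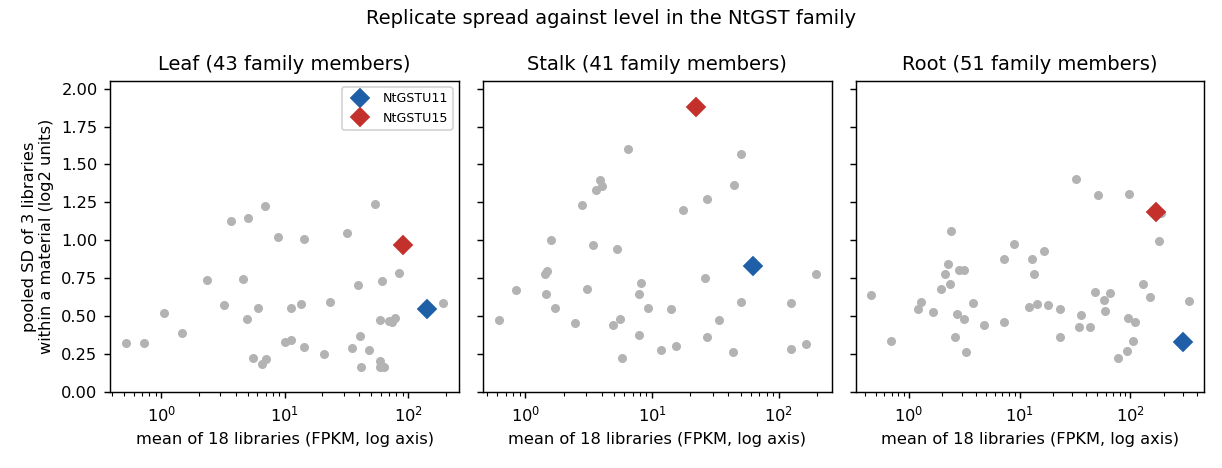
Pooled SD of log2(FPKM + 1) within a material against the mean FPKM of 18 libraries (log axis) for the family members that passed the filter on low values in each tissue. Grey points are other members. NtGSTU15 has the largest SD in stalk (1.88, with Va116_2 included), and NtGSTU11 in root combines a mean of 300.0 FPKM with an SD of 0.33.

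NtGSTU11 in leaf moved with the column number. The 6 libraries of column 1 had 85.80 to 112.26 FPKM, those of column 2 had 126.61 to 224.39 FPKM and those of column 3 had 91.53 to 209.34 FPKM, so that columns 1 and 2 did not overlap. In a limma F test of the column number beside the material, added after these values were seen, NtGSTU11 in leaf had an adjusted p = 0.0257, and 24.1% of all genes and 16 of 43 family members were called. NtGSTU15 in leaf had an adjusted p = 0.507. In stalk the same test called 0 genes (limma; 1402 genes at an unadjusted p under 0.05), and in root neither gene passed (adjusted p = 0.425 for NtGSTU11 and 0.366 for NtGSTU15). No source says what the number stands for.

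NtGSTU11 and NtGSTU15 were then compared with each other across the 18 libraries of each tissue, on the log2(FPKM + 1) scale. In stalk they were positively correlated (Pearson r = 0.67, permutation p = 0.0017, adjusted over 3 tissues 0.0051, Spearman rho = 0.577, permutation p = 0.0135). Without Va116_2, r was 0.627 over 17 libraries (permutation p = 0.00705, adjusted 0.0211), and with the 2 libraries removed that lay farthest from the NtGSTU11 median it was 0.465. On the FPKM values as deposited r was 0.476 and no longer passed (adjusted permutation p = 0.169). Within materials, as residuals from the material means, r in stalk was 0.691 (adjusted permutation p = 0.0039). In leaf the correlation missed the threshold (r = 0.474, permutation p = 0.049, adjusted 0.0735, rho = 0.488, permutation p = 0.0414, and r = 0.547 without the 2 farthest libraries). Within materials, r in leaf was 0.556 (adjusted permutation p = 0.0275). As residuals from the means of the column numbers, r in leaf was 0.351 and did not pass (adjusted permutation p = 0.23). The permutations of residuals did not allow for the means taken out. The permutation p-values of residuals are therefore too small, and no call is drawn from them. In root no correlation was detected (r = -0.119, permutation p = 0.632, rho = -0.135, permutation p = 0.591, and r = -0.296 without the 2 farthest libraries). The correlations of the 3 tissues were not tested against each other.

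**Figure D3:**
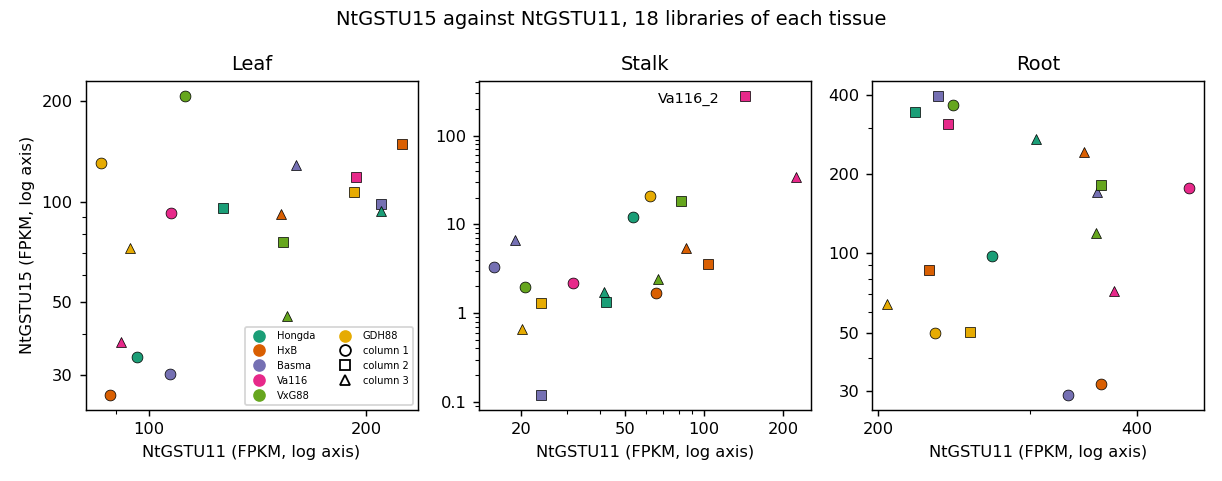
NtGSTU15 against NtGSTU11 in the 18 libraries of each tissue (FPKM, log axes). Colours are materials and shapes are column numbers. In stalk the points run from low to high in both genes, with Va116_2 at 143.23 and 280.37 FPKM; in root the 3 libraries highest in NtGSTU15 have NtGSTU11 levels between 220.91 and 244.17 FPKM.

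NtGSTU11 lies in an array of Tau genes. The scaffold that its identifier names carries 92 genes, of which 10 others are Tau members, NtGSTU4 to NtGSTU10 and NtGSTU12 to NtGSTU14. In every tissue NtGSTU11 was the highest of them. NtGSTU10, which lies 2 genes away, had means of 20.8 (leaf), 26.9 (stalk) and 96.2 FPKM (root), and NtGSTU8 had 23.0, 6.41 and 48.0 FPKM. NtGSTU7 had 5.51, 1.45 and 35.9 FPKM, NtGSTU14 had 6.85, 1.48 and 23.1 FPKM, and NtGSTU12, the next gene on one side, had 0.723, 0.841 and 12.9 FPKM in leaf, stalk and root. NtGSTU13 is listed at 0 in all stalk libraries. Whether reads were shared between these related genes in the counting could not be checked from the tables.

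In stalk most array members that passed the filter had high correlations with NtGSTU11. NtGSTU7 and NtGSTU10 passed the regression given further on, but neither passed without Va116_2 or with material as a term. NtGSTU4, NtGSTU5, NtGSTU7, NtGSTU12 and NtGSTU14 had low stalk means, between 0.841 and 1.60 FPKM, near the filter of 1 FPKM. Across the 18 stalk libraries, the 7 Tau neighbours that passed the filter had a Pearson r with NtGSTU11 between 0.311 (NtGSTU5) and 0.83 (NtGSTU7), with a median of 0.734, beside a median of -0.141 over all tested genes. Without Va116_2 the median of these neighbours was 0.685. In root the 9 neighbours that passed had a median r of 0.266 beside 0.113 over all genes, and in leaf the 6 that passed ranged from -0.411 (NtGSTU12) to 0.824 (NtGSTU14), with a median of 0.257 beside 0.123. These values describe 18 libraries that the genes share, and no test was made of the array as a set. Over all 55 other genes of the scaffold that passed in stalk the median was 0.0653. NtGSTU15 is the first of 12 genes on its own scaffold, the next 4 genes are listed at 0 in every library, and none of the 5 neighbours that passed had an r of 0.5 or more with it in any tissue.

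**Figure D4:**
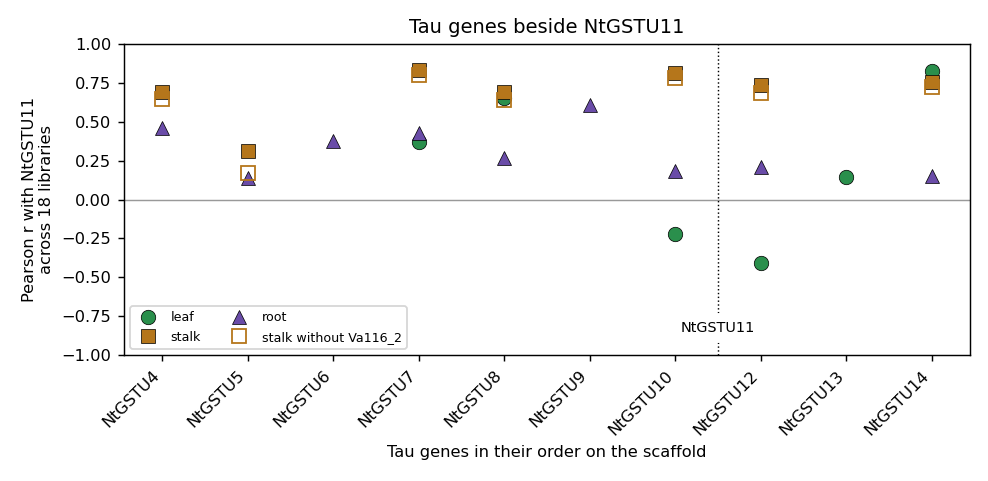
Pearson r of log2(FPKM + 1) with NtGSTU11 for the Tau genes of its scaffold, in their order, across the 18 libraries of leaf, stalk and root, and across 17 stalk libraries without Va116_2 (open squares). Genes that did not pass the filter in a tissue have no point. In stalk the filled squares lie between 0.311 and 0.83.

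The genes that followed each of the 2 across the 18 libraries of a tissue were counted with a limma regression on its log2(FPKM + 1) value. With NtGSTU11, 2367 genes rose in leaf (6.58% of those tested), against 56 in stalk (0.156%) and 718 in root (1.87%). With NtGSTU15, 487 genes rose in leaf (1.35%), against 1579 in stalk (4.39%) and 3258 in root (8.48%). Falling genes outnumbered rising ones for NtGSTU15 in stalk, with 2502 (6.95%), and in root, with 10416 (27.1%), while 29 fell in leaf (0.0806%). This balance depended on the scaling: rising genes made up 23.8% of the calls with NtGSTU15 in root on the values as deposited, 49.7% after quantile normalization and 40.6% after median scaling, and 38.7%, 56.9% and 59.5% in stalk. With NtGSTU11 they made up 62.3%, 52.3% and 39.1% for leaf, 77.8%, 86.2% and 89.2% for stalk, and 88.1%, 55.8% and 89.6% for root. Without the 7 libraries that lay closer to another material, the rising counts were 2006, 83 and 753 with NtGSTU11 and 573, 1138 and 2570 with NtGSTU15 in leaf, stalk and root.

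The number of genes called with NtGSTU11 in leaf depended on the column number. With the number as a term in the regression, 0 genes rose with NtGSTU11 in leaf (limma; 1259 at an unadjusted p under 0.05), against 2367 without it, and without the libraries of column 1 the count was also 0 (1596 at an unadjusted p under 0.05). Among the family, 5 of 42 tested members rose, beside 6.58% of all genes: NtGSTU14 (r = 0.824, adjusted p = 0.00775 by limma), NtGSTU17 (r = 0.709), NtGSTU1 (r = 0.683), NtGSTT2 (r = 0.678) and NtGSTU8 (r = 0.652). With the number as a term 0 of the 42 were called. The gene with the highest correlation was Nitab4.5_0002309g0030 (r = 0.908, mean 0.77 FPKM). With NtGSTU15 in leaf, 2 of 42 family members rose (1.35% of all genes), NtGSTU25 (r = 0.795) and NtGSTT2 (r = 0.749), and the highest correlation was with Nitab4.5_0005229g0030 (r = 0.917, mean 231 FPKM). For NtGSTU15 the column number as a term left 435 rising genes. Its count fell to 88 without leaf Basma_1 and to 111 without HxB_1, and that of NtGSTU11 fell to 468 without HxB_1.

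In stalk the number of genes called with NtGSTU15 depended on Va116_2. Of 40 family members tested, 12 rose with NtGSTU15, beside 4.39% of all genes, and 2 fell, beside 6.95%. The rising members included NtGSTU38 (r = 0.881), NtGSTT2 (r = 0.83), NtGSTU8 (r = 0.769), NtGSTU10 (r = 0.756) and NtGSTU7 (r = 0.748), and NtGSTU11 itself (r = 0.67, adjusted p = 0.0234 by limma). NtGSTU16 (r = -0.639) and NtGSTZ2 of the Zeta class (r = -0.681) fell. Without Va116_2, 15 genes rose (0.0418% of all genes; 2769 at an unadjusted p under 0.05), 0 of 39 family members were called, and the adjusted p of NtGSTU11 was 0.123. In the same 17 libraries r was 0.797 for NtGSTU38, 0.754 for NtGSTU8, 0.71 for NtGSTU7, 0.676 for NtGSTU10, 0.643 for NtGSTT2 and 0.627 for NtGSTU11, and the slope on NtGSTU15 was 0.802 against 0.625 for NtGSTU8 and 0.461 against 0.371 for NtGSTU11. Leaving out any other stalk library left between 1017 and 1969 rising genes. In Va116_2, 8 of the 41 tested family members were at 4 times the median of the other stalk libraries or more, on FPKM + 1, beside 2.75% of all genes: NtGSTU15 (81.8 times), NtGSTU38 (16.0 times), NtGSTU8 (9.41 times), NtGSTU40 (7.59 times), NtGSTU10 (6.08 times), NtGSTU5 (4.70 times), NtGSTT2 (4.35 times) and NtGSTU27 (4.16 times). NtGSTU11 was at 3.33 times.

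With NtGSTU11 in stalk, 2 of 40 family members rose, its array neighbours NtGSTU7 (r = 0.83) and NtGSTU10 (r = 0.816), both with an adjusted p = 0.0163 by limma. Without Va116_2, 14 genes rose (0.039%) and 0 of 39 family members were called, although r stayed at 0.801 for NtGSTU7 and 0.784 for NtGSTU10. Without Va116_3, the highest NtGSTU11 stalk library, 11 genes rose. With material as a term, 1 gene rose and 0 of the 40 family members were called. The correlation with Nitab4.5_0017813g0010 did not rest on Va116_2: it was 0.956 with that library and 0.955 without it, and this gene ranged from 6.09 to 111.28 FPKM in stalk.

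In root no gene was called as rising with both. The 2 lists come from the same 18 libraries. Their overlap therefore depends on the correlation of the 2 genes (r = -0.119 in root) and is no separate finding. Of the 718 genes rising with NtGSTU11 and the 3258 rising with NtGSTU15, 0 were shared (limma, adjusted p under 0.05), where 1.87% of the genes tested in both were called with NtGSTU11 and 8.49% with NtGSTU15. Among the family, 0 of 50 members rose with NtGSTU11. The highest correlation with NtGSTU11 was that of Nitab4.5_0000987g0100 (r = 0.939, mean 33.7 FPKM), and its count fell to 163 without Va116_1, the highest root library, and to 0 without all libraries of column 1 (2975 at an unadjusted p under 0.05) or of column 2 (2102). With NtGSTU15, 9 of 50 family members rose, beside 8.48% of all genes, and 7 fell, beside 27.1% of all genes. The highest correlation was that of Nitab4.5_0002986g0050 (r = 0.941, mean 25.0 FPKM). The rising members included NtGSTU10 (r = 0.874), NtGSTU17 (r = 0.867), NtGSTU40 (r = 0.863), NtGSTU6 (r = 0.788) and NtGSTU38 (r = 0.761). The falling members were NtGSTU31 (r = -0.665), NtGSTU35 (r = -0.638), NtGSTU24 (r = -0.525), the Phi members NtGSTF2 (r = -0.593) and NtGSTF5 (r = -0.545), NtTCHQD2 (r = -0.678) and NtDHAR3 (r = -0.559). Leaving out single root libraries left between 2549 and 3528 rising genes, and leaving out all of column 2 left 186.

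The genes that rose with NtGSTU15 in stalk and in root overlapped. Of the genes tested in both tissues, 731 were called in both, which is 47.5% of the 1540 called in stalk and 25.9% of the 2818 called in root, where 8.33% of the genes tested in both were called in root. They included NtGSTU5, NtGSTU10, NtGSTU17, NtGSTU38, NtGSTU40 and NtGSTT2. Without Va116_2, 8 of the 15 stalk genes (53.3%) were called in root. In leaf and stalk, 4 genes rose with NtGSTU15 in both, which is 0.864% of the 463 called in leaf and 0.286% of the 1399 called in stalk, beside 4.32% called in stalk and 1.43% in leaf among the genes tested in both. In leaf and root, 40 genes rose in both, 8.97% of the 446 called in leaf, beside 8.36% called in root among the genes tested in both, and 1.45% of the 2756 called in root, beside 1.35% called in leaf. Within leaf, 181 genes rose with both NtGSTU11 and NtGSTU15, 37.2% of the 487 called with NtGSTU15, beside 6.58% called with NtGSTU11. With the column number as a term, 0 genes rose with NtGSTU11 in leaf, so none was shared. Within stalk, 38 rose with both, 67.9% of the 56 called with NtGSTU11, beside 4.38% called with NtGSTU15. Without Va116_2, 1 stalk gene rose with both.

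NtGSTU15 also moved with the number of genes detected. In root its log2 level was negatively correlated with the number of genes at 1 FPKM or more (r = -0.705, permutation p = 0.0008, adjusted over 6 relations 0.0048, rho = -0.672, permutation p = 0.00303), and r was -0.759 without the 2 libraries farthest from the median. Basma_2 root, with the most NtGSTU15 (395.95 FPKM), had the fewest genes (30198), and Hongda_1, Basma_1 and HxB_1, with the most genes, had 97.58, 29.01 and 31.84 FPKM. In stalk r was -0.659 (adjusted permutation p = 0.0151, rho = -0.422, permutation p = 0.0819) and fell to -0.324 without the 2 farthest libraries, of which Va116_2 was one. No such relation was detected for NtGSTU15 in leaf (r = 0.267, adjusted permutation p = 0.34) or for NtGSTU11 in leaf (r = 0.00702), stalk (r = -0.376) or root (r = 0.319; adjusted permutation p between 0.248 and 0.979 for the 3). With the number of genes detected as a term, 29 genes rose and 4 fell with NtGSTU15 in root (limma; 3760 rising at an unadjusted p under 0.05) and 1 rose in stalk (1380), and 0 family members were called in either. The term is itself computed from the levels of all genes. Without root Hongda_1, HxB_1 and Basma_1, 3898 genes rose and 6709 fell, with 8 family members rising and 4 falling. The part of RNA quality, depth or tissue composition in these relations was not tested.

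**Figure D5:**
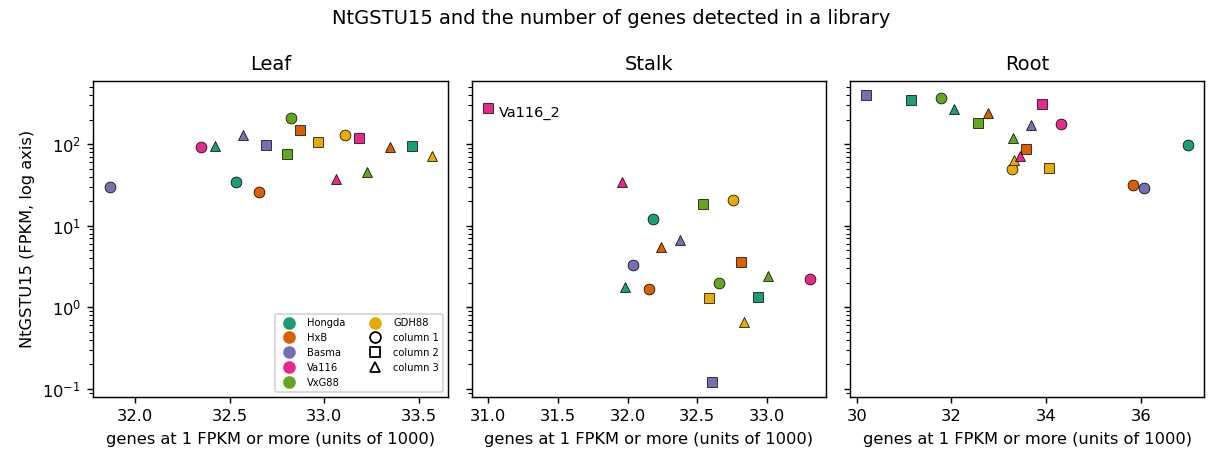
NtGSTU15 (FPKM, log axis) against the number of genes at 1 FPKM or more (in units of 1000) in the 18 libraries of each tissue. Colours are materials and shapes are column numbers. In root NtGSTU15 is high in libraries with few genes detected (r = -0.705), and stalk Va116_2 has both the fewest genes, 30999, and the highest NtGSTU15, 280.37 FPKM.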

How the data were processed

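Total RNA was sequenced as paired-end TruSeq libraries. The deposited tables, 1 per tissue, hold FPKM values that the authors made, with 2 decimals and without counts; the unit is that of the study's figure legend, and TPM with genes left out would look alike. HISAT2, StringTie and RSEM appear in the submitters' processing notes, and versions, options and build are not stated in any source. FPKM is scaled within each library, and whether the 3 tables were scaled together is not stated, which bears on every tissue contrast. Genes at 1 FPKM or more in 3 libraries of a fit were kept, values were taken as log2(FPKM + 1), which understates changes of low genes, and limma 3.58.1 (R 4.3.3, trended variance, tested on simulated data) was used with Benjamini-Hochberg adjustment over all genes kept and a threshold of 0.05. Permutation tests (100000 resamples, two-sided) and exact sign-flip tests used numpy. All 54 columns were mapped to a material and tissue by name; the letters of the sample titles could not be tied to the column numbers.

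The members, gene lists and tests were chosen with earlier results of these data known. Named genes are the 2 members, the family members that the regressions call (up to 5 rising by r, or all), the Tau neighbours, the 3 family members highest by mean and by spread, and of the 5 best correlated genes the first, by identifier only, since 0 identifiers outside the family could be paired with names. Alternatives were other pseudocounts (0.1 and 0.01), filters, scalings, terms and left-out libraries.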

Additional observations from a re-analysis of the deposited data

How the results depend on the processing

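The tissue differences, their interactions with material and the tests among materials kept their call and direction in 211 of 212 alternatives; without column 1 NtGSTU11 differed among materials in stalk (adjusted p = 0.00918 by limma, leave-out range 0.00918 to 1.0). The counts of rising genes moved most. NtGSTU11 in leaf gave 2367 genes, 286 with median scaling, 0 with column number as a replicate block, and 0 to 3458 when libraries were left out. NtGSTU15 in leaf gave 163 with material as a term, 323 with quantile normalization, 192 with median scaling, 271 with genes detected as a term and 0 to 725 on leaving out. NtGSTU11 in stalk gave 1 with material, 206 with median scaling, 14 without Va116_2, 16 with genes detected and 1 to 137 on leaving out. NtGSTU15 in stalk gave 952 with a pseudocount of 0.01, 15 without Va116_2, 1 with genes detected and 2 to 1969 on leaving out. NtGSTU11 in root gave 291 with material, 2311 with quantile normalization, 189 with median scaling and 0 to 1230 on leaving out. NtGSTU15 in root gave 5447 with median scaling, 29 with genes detected and 186 to 3636 on leaving out. The correlation between both genes ranged on leaving out libraries from 0.316 to 0.675 (leaf), from 0.614 to 0.724 (stalk) and from -0.285 to 0.0725 (root). It was 0.556 in leaf within materials, 0.476 in stalk on FPKM as deposited and, reversed, 0.185 in root with median scaling. On leaving out a column number, the log2 ratio ranged from 1.45 to 2.27 between root and stalk and from -2.28 to -2.16 between stalk and leaf, with an adjusted exact permutation p up to 0.09375; over all alternatives it ranged from 1.45 to 2.36 and from -2.76 to -2.16. Median scaling moved the median of all genes between root and stalk from -0.131 to 0.0448 on the log2 scale. Where no cause is named, the cause was not tested.

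Libraries of 1 column number deviated together in leaf (mean correlation 0.363 over 45 pairs of libraries from different materials, 33 of them over 0.1), not in stalk (-0.0237) and weakly in root (0.13), so the numbers were not taken as a pairing. With this replicate block the correlation between both genes was 0.351 (leaf), 0.683 (stalk) and -0.00222 (root), and no tissue call changed. Depth is unknown, so low values such as 0.12 FPKM carry no interval, and 3 libraries per group limit every test among materials.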
